A study of Mus musculus with 15 samples.

Results

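Matrix metalloproteinases (Mmp), secreted ADAMTS proteases (Adamts), the ADAMTS-like proteins (Adamtsl) and the tissue inhibitors of metalloproteinases (Timp) were followed in mouse podocytes under mechanical stretch. A gene was included when its symbol, looked up from its Ensembl identifier, was Mmp with a number and an optional letter, or Adamts, Adamtsl or Timp with a number. This gave 51 of the 55416 genes of the deposited count table: 23 Mmp, 19 Adamts, 5 Adamtsl and 4 Timp genes. The cells were SVI, a conditionally immortalised mouse kidney podocyte line that was differentiated and seeded on flexible silicone membranes, so every group comes from 1 line. Poly(A) RNA was sequenced from 15 samples without any genetic change or drug named in the labels. In experiment 1, 6 low-stretch samples (5 to 6 mm membrane deflection in the sample labels) were set beside 3 unstretched samples. In experiment 2, 3 high-stretch samples (7 to 8 mm) were set beside 3 unstretched samples. Because each amplitude was applied in a different experiment, amplitude and experiment cannot be told apart. Nothing in the labels states that replicates were separate cultures, so p-values measure the spread between these samples, which may be technical.

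Metalloproteinases are zinc enzymes, most of them made as inactive precursors, that cut collagens, proteoglycans and other proteins outside the cell. TIMPs bind their active sites, and Timp3, which is held in the matrix, also blocks several ADAM and ADAMTS enzymes. ADAMTS-like proteins share the accessory domains of the ADAMTS enzymes but have no protease domain, and several of them bind fibrillin microfibrils. In the glomerulus, podocytes and their neighbours build and turn over the basement membrane that this group of proteins can remodel.

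Total counts ran from 172211836 to 396658285 per sample, and the 51 genes took between 0.169% and 0.252% of them. The highest share was in unstretched replicate 3 of experiment 2, whose unstretched partners had 0.182% and 0.172%, so this library stood apart from its group. In experiment 1 the samples came from 3 runs of neighbouring plate positions, each with 1 unstretched and 2 low-stretch samples, and samples of a run deviated together (mean correlation of deviations 0.438 over 6 pairs). In experiment 2 each run held 1 sample of each group. Of 14 podocyte markers, between 5 and 8 had a mean above 1 TPM (a transcript level scaled for length and to a fixed library total) in a group, and Ptpro, Tcf21 and Trpc6 stayed under 0.1 TPM in all 4 groups. Summed mesangial markers, nearly all of it Acta2, were 1438 to 2341 TPM without stretch and 1721 to 4118 TPM under low stretch, and 2621 to 4926 and 5645 to 7654 TPM in the unstretched and high-stretch samples of experiment 2, with Itga8, Ren1, Myh11 and Rgs5 under 0.1 TPM throughout. Of the 6 tested genes of this list, 4 had a negative log2 fold change in each comparison (medians -0.19 and -0.49). Pdgfrb fell under low stretch (-0.56, adjusted p = 0.0199), and Acta2 (0.86 and 0.98) was not called in either. Summed tubular markers, led by Cdh16, were 349 to 568 TPM against 161 to 284 TPM, and 453 to 580 against 129 to 133.4 TPM, with Slc34a1, Slc12a3, Umod and Aqp2 under 0.1 TPM. The macrophage and leukocyte list, led by Csf1r, was 16.8 to 17.8 against 4.84 to 9.68 TPM, and 9.98 to 13.4 against 3.82 to 4.63 TPM, with Ptprc, Adgre1 and Itgam under 0.1 TPM. Endothelial markers summed to at most 0.686 TPM and fibroblast markers to at most 0.785 TPM. The part of these marker shifts in the results below was not tested, and in bulk RNA fewer cells of a type and less RNA per cell cannot be told apart.

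Levels were compared between genes as TPM, which corrects for length. The inhibitors led: over all 15 samples Timp2 averaged 345 TPM, Timp3 257 TPM and Timp1 134 TPM, whereas the fourth inhibitor, Timp4, averaged 0.0192 TPM. Next came Adamts1, a secreted protease that cuts the proteoglycans versican and aggrecan, at 92.6 TPM, the membrane-anchored collagenase and pro-Mmp2 activator Mmp14 at 68 TPM, the gelatinase Mmp2 at 52.6 TPM, and Mmp11 at 42.3 TPM. The aggrecanases Adamts4 and Adamts5 averaged 33.7 and 20.9 TPM. In all, 22 of the 51 genes averaged at least 1 TPM and 12 at least 10 TPM. The gelatinase Mmp9, at 0.204 TPM, was among the low ones.

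**Figure D1:**
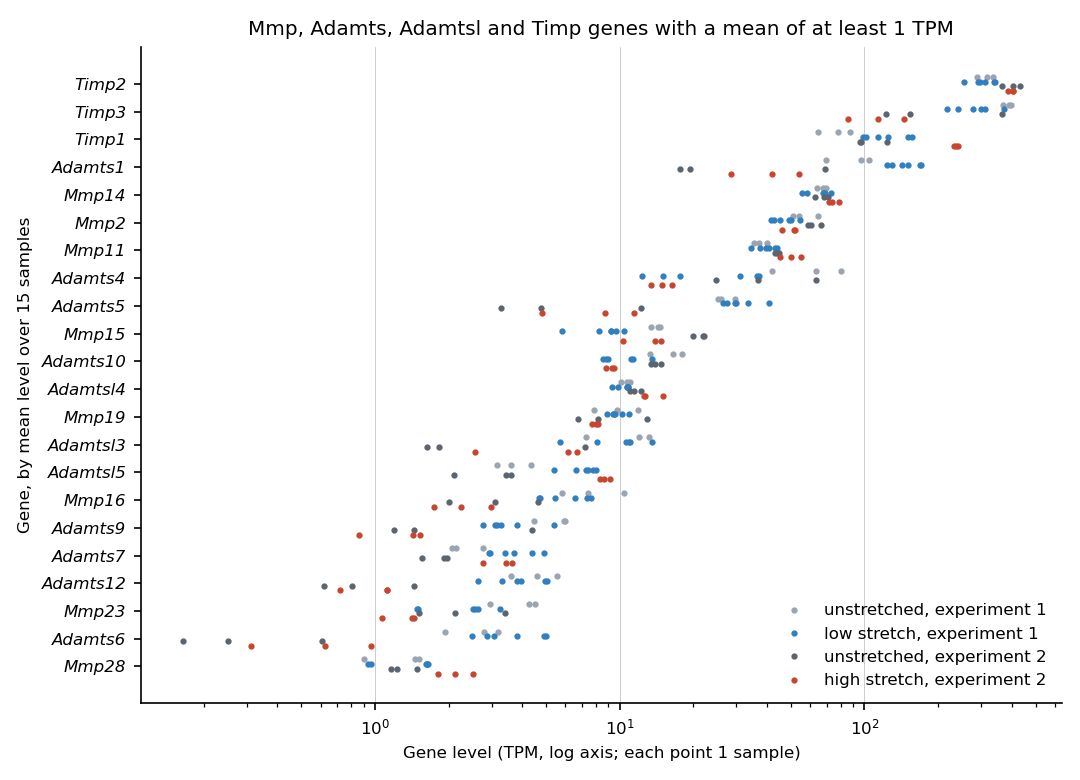
TPM on a log axis for the 22 genes with a mean of at least 1 TPM, 1 point per sample coloured by group. Timp2, Timp3 and Timp1 are the top 3 of the mean order, and Adamts5 and Adamts6 are lower in all samples of experiment 2 than in any sample of experiment 1.

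The order of levels was only partly resolved. In unstretched experiment 1, Timp3 at 386 ± 15.7 TPM (SD, n = 3) lay above Timp2 at 314 ± 23.9 TPM without overlap, and Timp2 lay above Adamts1 at 90.6 ± 18.4 TPM. From Adamts1 down through Timp1, Mmp14, Adamts4 and Mmp2, each neighbour in the order overlapped the next. Mmp2 at 56.8 ± 7.17 TPM then stood above Mmp11 at 37.5 ± 2.2 TPM, and Mmp11 above Adamts5 at 26.9 ± 2.33 TPM. In unstretched experiment 2 the leading gene was Timp2 at 401 ± 33.9 TPM, and Timp3 at 213 ± 132 TPM overlapped Timp1 at 106 ± 15.7 TPM, since its lowest sample (122 TPM) was under the highest Timp1 sample (124 TPM). Replicate 3 had 364.5 TPM of Timp3, where the other unstretched samples had 153.5 and 122 TPM.

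A set of 13 genes had too few reads to be tested in either stretch comparison: Adamts3, Adamts19, Adamts20, Mmp1a, Mmp1b, Mmp3, Mmp7, Mmp8, Mmp13, Mmp20, Mmp21, Mmp25 and Mmp27. The highest count of any of them in a library was 13, and Mmp1b and Mmp7 had a count of 0 in all 15 libraries. A count of 0 allows up to 3 counts, which is 0.00683 to 0.0222 CPM (counts scaled to a fixed library total) depending on the library, and this covers counting error only. The list holds all 4 genes of the interstitial collagenase type (Mmp1a, Mmp1b, Mmp8, Mmp13) and the matrilysin Mmp7. The other 38 genes passed the filter on low counts in 1 or both comparisons.

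Under low stretch, 9 of the 36 tested genes changed (25%), 4 higher and 5 lower, where change means a Benjamini-Hochberg adjusted p under 0.05 in edgeR's quasi-likelihood test over all genes. Over the whole table, 5.45% of genes changed at this threshold, 1.85% higher and 3.6% lower, and 23.6% had an unadjusted p under 0.05, beside 19 of the 36. Adamtsl1, Adamts15, Adamts18, Adamts10 and Mmp15 fell, and Adamts1, Adamts7, Adamtsl5 and Timp1 rose. Under high stretch, 11 of 37 tested genes changed (29.7%), 4 higher and 7 lower, against 3.47% of all genes (1.31% higher and 2.16% lower), and 20 of the 37 had an unadjusted p under 0.05, as did 14.6% of all genes. Adamtsl1, Adamts15, Adamts16, Adamts18, Adamts8, Adamtsl2 and Adamts4 fell, and Mmp10, Adamtsl5, Timp1 and Adamts7 rose. The median size of the log2 fold change, sign ignored, was 0.52 and 0.69 for the 36 and 37 genes and 0.20 and 0.24 over all genes tested. With the sign kept, the medians were 0.01 and -0.12, beside 0.01 and -0.02 over all genes tested. A fit of the low-stretch comparison that kept the plate run as a block called 21 of the 36 genes, 8 higher and 13 lower, and held all 9, while it called 28.2% of all genes. Single libraries decided much of both counts. The low-stretch count was 4 without low-stretch replicate 4 or unstretched replicate 3, and the high-stretch count was 2, 6 and 1 without high-stretch replicates 1, 2 and 3 and 5 without unstretched replicate 1. The changes were unevenly spread over the families. Of the Mmp genes, 1 of 13 tested changed under low stretch and 1 of 12 under high stretch, whereas 5 of 14 and 6 of 16 Adamts genes, 2 of 5 and 3 of 5 Adamtsl genes, and 1 of 4 Timp genes in both comparisons did. Whether the families differ in this respect was not tested.

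**Figure D2:**
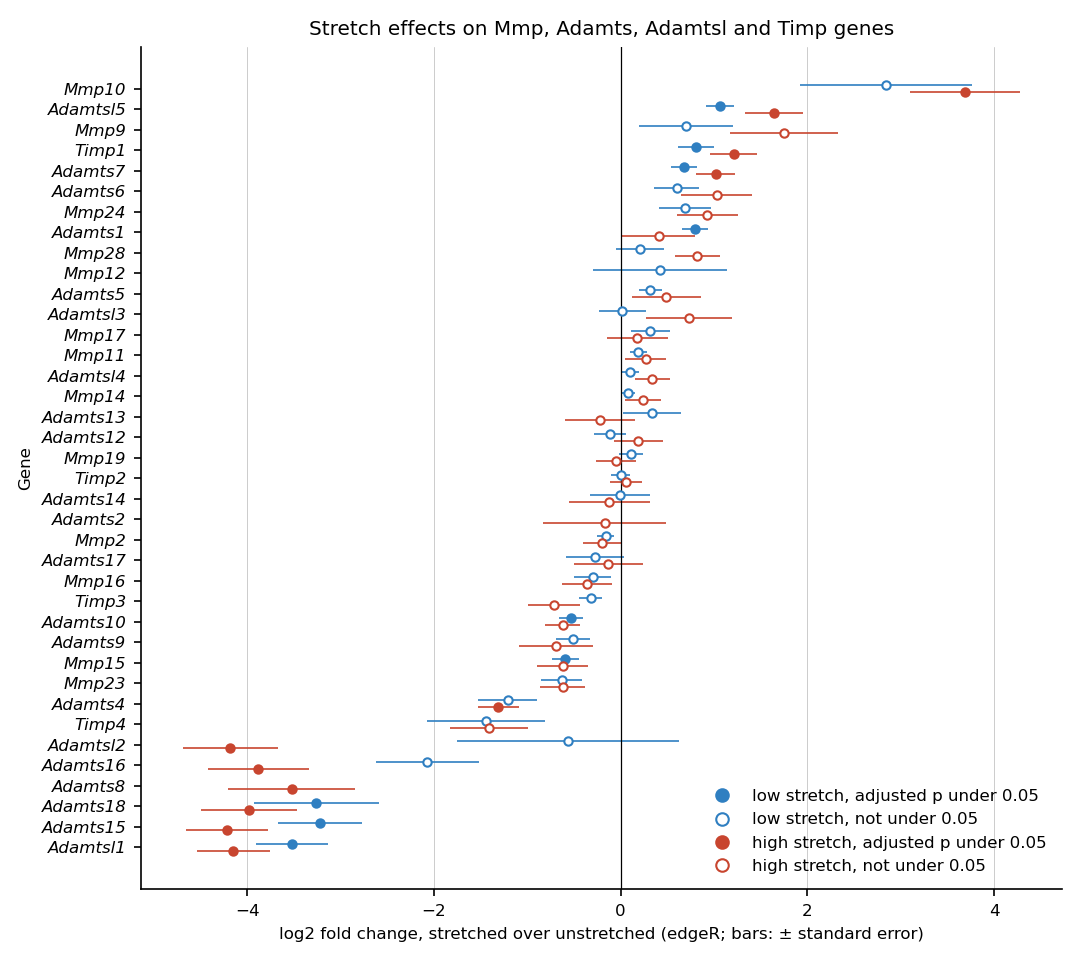
log2 fold change of stretched over unstretched samples with its standard error for the 38 tested genes, low stretch in blue and high stretch in red, filled where the adjusted p was under 0.05. Most blue and red points of a gene lie on the same side of 0, and the 6 genes at the bottom of the plot all have high-stretch values below -3.

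Adamtsl1, a secreted matrix protein of the ADAMTS-like family (punctin), had the lowest adjusted p among the tested genes of these families in both comparisons. Its level was 2.77, 5.21 and 5.81 CPM in the unstretched samples of experiment 1, and the 6 low-stretch samples had a minimum of 0.192, a median of 0.358 and a maximum of 0.821 CPM. In experiment 2 it was 4.79, 3.78 and 3.01 CPM without stretch and 0.243, 0.284 and 0.121 CPM under high stretch. Every stretched sample lay below every unstretched sample of its experiment. The log2 fold change was -3.52 (SE 0.39, adjusted p = 0.00248) under low stretch and -4.15 (SE 0.39, adjusted p = 0.00389) under high stretch. Within plate runs it lay between -4.06 and -3.28 in experiment 1 and between -4.56 and -3.70 in experiment 2. The call was kept whichever single library was left out (highest adjusted p 0.014 over 9 fits and 0.0463 over 6 fits).

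Adamts15, an aggrecan- and versican-cutting protease, also fell in both comparisons. Unstretched samples had 1.88, 0.526 and 2.37 CPM in experiment 1 and 2.24, 1.88 and 3.71 CPM in experiment 2. Low-stretch samples ran from 0.0799 through a median of 0.173 to 0.276 CPM, and high-stretch samples had 0.0769, 0.177 and 0.169 CPM. No stretched sample reached the level of an unstretched sample of its experiment, although unstretched replicate 2 of experiment 1 was the lowest of the 6 unstretched samples. Its log2 fold change was -3.22 (SE 0.45, adjusted p = 0.00569) and -4.22 (SE 0.44, adjusted p = 0.0053), and within runs it ranged from -3.73 to -2.09 and from -4.74 to -3.36. All 9 leave-one-out fits of experiment 1 kept the call (highest adjusted p 0.034), and in experiment 2 it was lost without high-stretch replicate 3 (adjusted p 0.0551).

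Adamts18 and Adamts16, ADAMTS proteases grouped together by sequence, were lower after stretch as well. Adamts16 had 4.52, 4.38 and 6.45 CPM in unstretched experiment 1, and 4.76, 4.66 and 11.0 CPM in unstretched experiment 2. High-stretch samples had 0.227, 0.716 and 0.456 CPM of Adamts16, all below the unstretched range, with a log2 fold change of -3.88 (SE 0.54, adjusted p = 0.0116) that was lost without high-stretch replicate 1 or 3 (adjusted p up to 0.0889). In low-stretch samples Adamts16 ran from 0.361 through a median of 0.801 to 3.18 CPM. These groups did not overlap either, but the change of -2.07 (SE 0.55) missed the threshold (adjusted p = 0.0549). The highest low-stretch values, 3.18 and 1.69 CPM, were both in plate run 3, and with the plate run as a block the change was -2.39 with an adjusted p of 0.000451.

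Adamts18 rested on few reads. Its counts were 52, 67 and 377 in unstretched experiment 1 and between 6 and 38 in the low-stretch samples, or 0.153, 0.202 and 1.20 CPM against 0.0192 to 0.119 CPM with a median of 0.0449. In experiment 2 the counts were 38, 17 and 49 without stretch and 2, 1 and 4 under high stretch. Both pairs of groups were separate. The log2 fold change was -3.26 (SE 0.67, adjusted p = 0.0218) and -3.98 (SE 0.51, adjusted p = 0.00877), with within-run values from -3.62 to -1.96 and from -4.04 to -2.99. On pooled counts, unstretched experiment 2 was 16.7 times the high-stretch level, with an exact 95% interval of 7.84 to 42.6 for counting error only, and the gene passed the filter there through the unstretched samples alone. Unstretched replicate 3 of experiment 1 carried much of the low-stretch value, since without it the change was -1.74 (adjusted p 0.177), and the call was also lost without low-stretch replicate 4. The high-stretch call was lost without high-stretch replicate 1 or 3 (adjusted p up to 0.0713).

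Adamts8 and Adamtsl2 fell in the high-stretch comparison. Adamts8, another aggrecan-cutting ADAMTS whose gene is the next protein-coding gene to Adamts15, had 10, 16 and 16 counts in the unstretched samples of experiment 2 and 2, 0 and 2 counts under high stretch. The groups did not overlap, and the pooled level was 11.8 times higher without stretch (exact 95% interval 4.29 to 45.4, counting error only). Its fitted log2 change was -3.52 (SE 0.68, adjusted p = 0.0332), a value that depends on the prior count at such low reads. The gene passed the filter through the unstretched samples alone, the group where it is high, so it had to differ. With a mean count of at least 100 neither it nor Adamts18 was tested, and 9 genes were called under high stretch and 8 under low stretch. Of Adamts8, 489 of 4613 annotated exon bases are shared with an antisense gene on the other strand. The gene did not pass the filter in experiment 1, where no library held more than 24 counts. Of the 6 leave-one-out fits in experiment 2, only that without unstretched replicate 3 kept the call (adjusted p up to 0.17 in the others).

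Adamtsl2, which binds fibrillin and the latent TGF-beta binding protein Ltbp1, was 5.40, 3.84 and 2.46 CPM in unstretched experiment 2 and 0.142, 0.383 and 0.129 CPM under high stretch. These groups were far apart, and the log2 fold change was -4.18 (SE 0.51, adjusted p = 0.00808), with within-run values from -5.18 to -3.30. The call was lost without high-stretch replicate 1 or 3 (adjusted p up to 0.0626). In experiment 1 the Adamtsl2 level differed between plate runs. Run 3 had 1.61 CPM without stretch and 1.63 and 0.893 CPM with it, whereas the 6 samples of the other runs had at most 0.211 CPM. The pooled low-stretch change was -0.56 (SE 1.19, adjusted p = 0.812), it was lower in 3 of 3 runs (-1.83 to -0.41), and with the run as a block it was -1.18 (adjusted p 0.0209). Without unstretched replicate 3 of experiment 1 the pooled Adamtsl2 value turned to 1.16.

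Of the abundant genes, the aggrecanase Adamts4 was lower in all stretched samples. It had 139, 93.8 and 182 CPM in unstretched experiment 1 and a minimum of 32.2, a median of 57.2 and a maximum of 88.6 CPM under low stretch. In experiment 2 it had 131, 96.5 and 166 CPM without stretch and 51.8, 52.7 and 52.8 CPM under high stretch. The groups were separate in both experiments, and the high-stretch samples lay within a very narrow range. Under high stretch it fell by 1.31 on the log2 scale (SE 0.22, adjusted p = 0.0229), with the call held only when unstretched replicate 2 or 3 was the library left out (adjusted p up to 0.153 otherwise). With library totals in place of TMM factors, its adjusted p was 0.0517. The low-stretch value of -1.21 (SE 0.32, adjusted p = 0.0554) just missed the threshold, lay between -1.42 and -1.06 within runs, and passed with the run as a block (-1.26, adjusted p 9.44e-05).

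Adamts10, which acts on fibrillin microfibrils, and Mmp15, a membrane-type Mmp, fell modestly under low stretch. Adamts10 was 26.1, 22.2 and 29.8 CPM without stretch and 15.5 to 23.2 CPM (median 17.5) with it, so 1 low-stretch sample overlapped the unstretched range. Its log2 fold change was -0.53 (SE 0.13, adjusted p = 0.0391), and the call was kept only without unstretched replicate 2 or low-stretch replicate 5 (adjusted p up to 0.211). Mmp15 was 36.9, 38.4 and 35.5 CPM without stretch and 16.5 to 28.8 CPM (median 25.3) with it, with no overlap. It changed by -0.59 (SE 0.14, adjusted p = 0.0392), and the call was kept only without low-stretch replicate 1, 5 or 6 (adjusted p up to 0.123). High-stretch values were -0.62 (SE 0.19, adjusted p = 0.149) for Adamts10 and -0.62 (SE 0.27, adjusted p = 0.34) for Mmp15.

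Among the genes that rose, Adamtsl5, a fibrillin-binding ADAMTS-like protein, was called in both comparisons. It was 4.10, 3.50 and 3.09 CPM without stretch and 5.80 to 8.57 CPM (median 7.78) under low stretch, and 4.43, 5.62 and 2.42 CPM against 12.0, 13.5 and 12.6 CPM in experiment 2. All stretched samples were above all unstretched samples of both experiments. The log2 fold change was 1.07 (SE 0.15, adjusted p = 0.00572) and 1.64 (SE 0.31, adjusted p = 0.0299), with within-run ranges of 0.88 to 1.19 and 1.27 to 2.38. Each of the 9 leave-one-out fits kept the low-stretch call (highest adjusted p 0.0372), and the high-stretch call was kept without unstretched replicate 2 or 3 and lost in the other 4 fits (adjusted p up to 0.137).

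Adamts7, which cuts the cartilage oligomeric matrix protein Comp, rose with a smaller change. It was 6.80, 5.46 and 5.15 CPM without stretch and 7.79 to 10.9 CPM (median 9.06) under low stretch, and 7.29, 7.54 and 5.14 CPM against 12.7, 13.2 and 14 CPM in experiment 2. The groups did not overlap in either experiment. Its log2 fold change was 0.68 (SE 0.14, adjusted p = 0.0251), between 0.66 and 0.71 in the 3 plate runs, and 1.02 (SE 0.21, adjusted p = 0.0441), between 0.80 and 1.45. The low-stretch call was lost without low-stretch replicate 4 or unstretched replicate 2 or 3 (adjusted p up to 0.141), and the high-stretch call was kept only without unstretched replicate 3 (up to 0.214).

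Among the Mmp and Adamts genes, Adamts1 was the most abundant in both groups of experiment 1, though not in those of experiment 2, and it rose under low stretch. It was 226, 248 and 165 CPM in the unstretched samples and 316 to 410 CPM (median 380) in the low-stretch samples, without overlap. The log2 fold change was 0.80 (SE 0.14, adjusted p = 0.0101), lay between 0.57 and 1.25 within runs, and stayed under the threshold in all 9 leave-one-out fits (highest adjusted p 0.0395). In experiment 2 it was 78.3, 76.2 and 194 CPM without stretch and 178, 121 and 160 CPM with it, so that unstretched replicate 3 was above all high-stretch samples. The high-stretch value was 0.41 (SE 0.39, adjusted p = 0.775). Without unstretched replicate 3 the Adamts1 value was 1.04 with an adjusted p of 0.0114. Leaving out that library gave 15 called genes in place of 11, with all 11 held and Adamts1, Adamts6, Adamtsl3 and Adamts10 added.

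**Figure D3:**
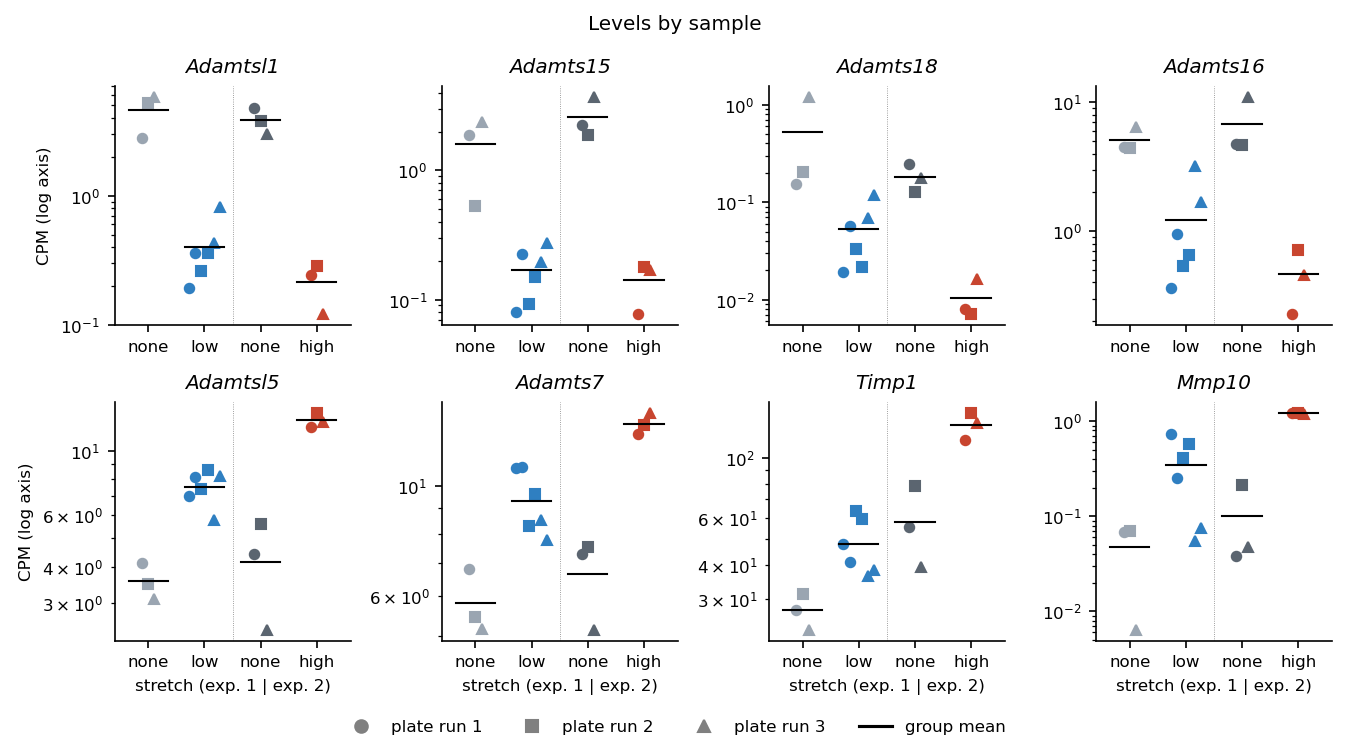
CPM by sample on log axes for 8 genes that changed, with unstretched samples in grey, low stretch in blue, high stretch in red, symbols for the plate run and a bar for the group mean. The upper 4 genes are lower and the lower 4 higher in most stretched samples, and the low-stretch samples of plate run 3 sit nearest to the unstretched ones for Adamtsl1, Adamts16 and Mmp10.

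Mmp10, or stromelysin 2, a broad protease that can also activate other pro-Mmps, was the 1 Mmp gene that rose. It was 0.0386, 0.215 and 0.0473 CPM in unstretched experiment 2 and 1.21, 1.23 and 1.19 CPM under high stretch, from counts of 6, 29 and 13 against 299, 174 and 296. The groups were separate, and the high-stretch samples were nearly identical in level. Mmp10 passed the filter there through the high-stretch samples, the group where it is high, since the unstretched samples alone would not have passed it. With a mean count of at least 100 Mmp10 was still called. It reached that mean through the high-stretch samples as well, so this filter is no independent support. The log2 fold change was 3.69 (SE 0.59, adjusted p = 0.0185), between 2.48 and 4.73 within runs, and the call was lost without high-stretch replicate 1 or 3 or unstretched replicate 1 (adjusted p up to 0.0908). Even so its mean after high stretch was 0.944 TPM, far below that of Mmp14. In experiment 1 it was 0.0679, 0.0695 and 0.00638 CPM without stretch and 0.0556 to 0.735 CPM (median 0.331) under low stretch. The low-stretch samples of plate run 3, at 0.0556 and 0.0752 CPM, overlapped the unstretched range, and the other 4 lay above it. The low-stretch change of 2.84 (SE 0.92) was not called (adjusted p = 0.0946), was positive in 3 of 3 runs (2.40 to 2.68) and had an adjusted p of 0.000609 with the run as a block.

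In the GENCODE M21 annotation Mmp10 lies in a run of 9 protein-coding Mmp genes with no other protein-coding gene between them, in the order Mmp13, Mmp12, Mmp1b, Mmp3, Mmp10, Mmp8, Mmp27, Mmp20 and Mmp7. Apart from Mmp10, the macrophage elastase Mmp12 alone passed the filter, in the low-stretch comparison, at no more than 16 counts per library (log2 fold change 0.42, SE 0.72, adjusted p = 0.757). The AP-1 motif TGANTCA, which reads the same on both strands, was searched for because AP-1 sites are a textbook feature of inducible Mmp promoters. It occurred in 2565 of 32851 RefSeq promoters of 300 bases (7.81%). Promoters were in the table for 36 of the 51 genes (39 promoters), and 8 of these 39 (20.5%) held the motif. All 8 belonged to the Mmp cluster, where 8 of 10 genes with a promoter in the table had it (the 10 include Mmp1a), against 0 of the 26 other genes. The 150 bases before the start are shown for Mmp10, the cluster gene that was raised, with the motif in capitals. They are also shown for Mmp13, at the end of the cluster, and for Mmp3, the next gene of this run on one side. Both had too few reads to test. The promoter of Mmp1a, a gene that the run of 9 does not include, lies between those of Mmp3 and Mmp10 and also holds the motif. All 3 stretches shown are on the plus strand (RefSeq, GRCm38.p6), Mmp10 at chr9:7502192-7502341, Mmp13 at chr9:7272364-7272513 and Mmp3 at chr9:7445672-7445821.
Mmp10: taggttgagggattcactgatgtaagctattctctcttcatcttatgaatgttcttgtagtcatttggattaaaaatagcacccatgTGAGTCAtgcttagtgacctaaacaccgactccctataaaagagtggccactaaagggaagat
Mmp13: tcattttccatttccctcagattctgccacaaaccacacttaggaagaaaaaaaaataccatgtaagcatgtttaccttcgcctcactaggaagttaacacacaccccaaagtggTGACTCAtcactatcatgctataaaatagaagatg
Mmp3: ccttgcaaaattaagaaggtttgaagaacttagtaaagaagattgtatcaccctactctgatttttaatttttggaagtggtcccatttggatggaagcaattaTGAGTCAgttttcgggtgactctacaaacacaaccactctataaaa
The match begins 63 bases before the annotated start in Mmp10, 35 in Mmp13 and 46 in Mmp3, and all 3 stretches also hold TATAAA downstream of it. The promoter of Mmp8, the next gene on the other side, did not hold these letters. A match is a description of the letters only, and in Mmp3 and Mmp13 it was present where almost no reads were counted.

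Timp1, the inducible soluble inhibitor, rose in both comparisons. It was 27.4, 31.3 and 23.1 CPM without stretch and 36.6 to 63.6 CPM (median 44.6) under low stretch, and 55.4, 78.6 and 39.5 CPM against 116, 146 and 134 CPM in experiment 2. No stretched sample overlapped the unstretched samples of its experiment. The log2 fold change was 0.81 (SE 0.19, adjusted p = 0.0398) and 1.21 (SE 0.25, adjusted p = 0.0441), between 0.70 and 0.97 and between 0.90 and 1.76 within runs. Both calls were close to the threshold. The first was kept only without low-stretch replicate 5 or 6 (adjusted p up to 0.194) and the second only without unstretched replicate 2 or 3 (up to 0.208), while with the run as a block they had adjusted p values of 5.83e-05 and 9.21e-05.

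The other inhibitors gave different values. Timp2, which also helps Mmp14 activate pro-Mmp2, was 460 to 499 CPM in unstretched experiment 1 and 400 to 555 CPM under low stretch, with a log2 fold change of 0.00 (SE 0.10, adjusted p = 0.994). In experiment 2 its change was 0.06 (SE 0.17, adjusted p = 0.948), and its sign turned with the scaling. Timp3 was 585, 569 and 617 CPM without stretch and 387 to 592 CPM (median 461) under low stretch, and 399, 355 and 667 CPM against 320, 244 and 295 CPM in experiment 2. In CPM, high-stretch samples lay below all unstretched samples of Timp3, and 1 low-stretch sample overlapped. As TPM, Timp3 was 85.5 to 145 under high stretch, which overlapped the 122 to 365 TPM of its unstretched samples. Its changes of -0.32 (SE 0.12, adjusted p = 0.135) and -0.71 (SE 0.28, adjusted p = 0.277) did not pass, although with the plate run as a block the low-stretch value was called (-0.33, adjusted p 0.0186). Without unstretched replicate 3 of experiment 2 the high-stretch value was -0.34. Of its 8144 exon bases, 1733 are shared with Syn3 on the other strand. Timp4 had at most 38 counts in any library, with values of -1.44 (SE 0.63, adjusted p = 0.197) and -1.41 (SE 0.42, adjusted p = 0.139), and its low-stretch value was called with the run as a block (adjusted p 0.0221).

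Summed over the 4 inhibitors, the level was similar in all groups while its makeup differed. The sum was 777 ± 22 TPM (SD, n = 3) and 717 ± 37.6 TPM (n = 6) without and with low stretch, and 720 ± 151 and 750 ± 23.4 TPM (n = 3 each) in experiment 2. Timp1 made up 9.88 ± 1.25% of the sum in unstretched and 17.5 ± 3.94% in low-stretch samples, and 15.2 ± 4.13% and 31.5 ± 0.603% in experiment 2. Stretched samples were above their unstretched samples in both experiments, at 13 to 23.3% against at most 11.1%, and 30.9 to 32.1% against at most 19%. The Timp3 share was 49.7 ± 3.25% and 39.8 ± 6.41%, and 28.2 ± 11.4% and 15.2 ± 3.56%. The ratio of summed Timp to summed Mmp TPM was 3.91 ± 0.235, 3.96 ± 0.243, 3.40 ± 0.581 and 3.69 ± 0.22 in unstretched and low-stretch experiment 1 and unstretched and high-stretch experiment 2, with overlapping ranges within each experiment. These RNA ratios carry no test and say nothing of protein or enzyme activity.

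**Figure D4:**
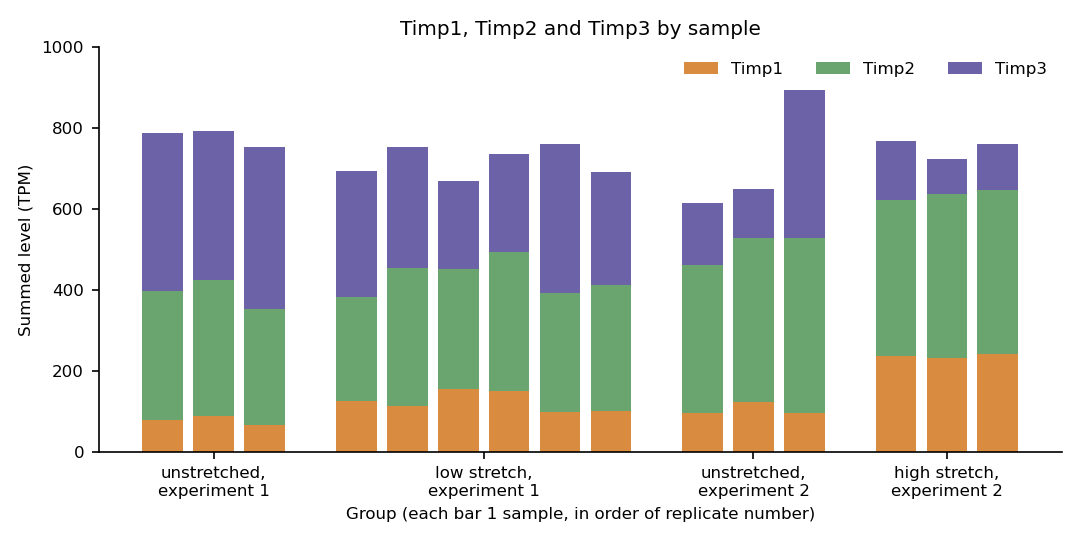
Summed TPM of Timp1, Timp2 and Timp3 as stacked bars from 0, 1 bar per sample in order of replicate number within the 4 groups. The high-stretch samples have the tallest Timp1 segments (232.4 to 240.3 TPM), and unstretched replicate 3 of experiment 2 has a Timp3 segment of 364.5 TPM that its partners lack.

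The most abundant Mmp genes did not pass the test. Mmp14 was 81.2 to 85.5 CPM without stretch and 82.1 to 96.0 CPM under low stretch, and 102 to 148 against 142 to 164 CPM in experiment 2, with changes of 0.08 (SE 0.07, adjusted p = 0.526) and 0.24 (SE 0.19, adjusted p = 0.704). Mmp2 was 77.3 to 96.1 against 70.3 to 83.3 CPM and 118 to 165 against 98.7 to 141 CPM, with changes of -0.16 (SE 0.09, adjusted p = 0.283) and -0.20 (SE 0.20, adjusted p = 0.79). All of these groups overlapped in CPM. As TPM, the groups of experiment 2 were separate. Mmp14 was 62.7 to 70.7 TPM without stretch and 72 to 78.6 TPM under high stretch. Mmp2 was 58.6 to 66.3 against 46 to 52 TPM, and Mmp11 was 42.9 to 44.8 against 45.1 to 55.1 TPM. Separation of these genes thus depended on the scale. Mmp11 had 0.19 (adjusted p = 0.222) and 0.27 (adjusted p = 0.72). Of the Mmp genes with a mean above 1 TPM, Mmp15 alone was called, under low stretch. Mmp28 reached 0.82 under high stretch (SE 0.24, adjusted p = 0.131), with 2.33 to 3.10 against 3.59 to 5.56 CPM and no overlap. The low-level gelatinase Mmp9 gave 1.75 under high stretch (SE 0.58, adjusted p = 0.19), with 0.225 to 0.644 against 0.441 to 1.89 CPM. Mmp23 had -0.63 and -0.62 (adjusted p = 0.11 and 0.268), and Mmp16 and Mmp19 lay between -0.36 and 0.11. With the plate run as a block Mmp23 (-0.66, adjusted p 0.00204), Mmp16 (-0.28, adjusted p 0.0213) and Mmp9 were called under low stretch.

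Among the other ADAMTS genes above 1 TPM, Adamts5, the second main aggrecanase and the next protein-coding gene to Adamts1, was 144 to 169 CPM without and 171 to 236 CPM with low stretch. These ranges did not overlap, and the change of 0.32 (SE 0.12, adjusted p = 0.139) did not pass. Its high-stretch value was 0.49 (SE 0.37, adjusted p = 0.682). Adamts6 had 0.60 and 1.03 (adjusted p = 0.162 and 0.253), and Adamts9, a versican- and aggrecan-cutting protease, had -0.51 and -0.69 (adjusted p = 0.112 and 0.539). Adamts12 had -0.11 and 0.19 (adjusted p = 0.725 and 0.87). With the plate run as a block Adamts5 (0.33, adjusted p 0.0399), Adamts6 (0.59, adjusted p 0.00286) and Adamts9 (-0.52, adjusted p 0.0123) were called under low stretch. The ADAMTS-like genes Adamtsl3 and Adamtsl4 had 0.02 and 0.10 under low stretch and 0.73 and 0.34 under high stretch (lowest adjusted p 0.507).

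Counting separated groups in CPM in place of tests, 11 of the 36 genes under low stretch and 18 of the 37 under high stretch had no overlap between stretched and unstretched samples. The corresponding shares over all genes were 15.3% and 20.6%. Of 35 genes tested in both comparisons, 32 (91.4%) had the same sign in both, where 76.4% of all 18403 genes did. The comparisons share no samples. A set of 6 genes was called in both: Adamts7, Adamts15, Adamts18, Adamtsl1, Adamtsl5 and Timp1. Another 3 were called only under low stretch (Adamts1, Adamts10, Mmp15) and 5 only under high stretch (Adamts4, Adamts8, Adamts16, Adamtsl2, Mmp10). In 1 edgeR fit of all 15 samples that set the high-stretch effect against the low-stretch effect, 0 of 38 genes passed (0% of all genes, and 0 by DESeq2). At an unadjusted p under 0.05 there were 2 genes by edgeR and 2 by DESeq2, where 2.48% of all genes had such a p by edgeR. These were Adamtsl2 (difference -3.65, SE 1.69) and Adamts8 (-2.48, SE 1.05), so calls made under 1 amplitude only are not shown to differ between amplitudes.

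Without stretch the experiments themselves differed. Comparing unstretched experiment 2 with unstretched experiment 1, 17 of 36 genes passed, 12 higher and 5 lower, beside 62.5% of all genes (29.7% higher and 32.7% lower). Of the 36, 18 had an unadjusted p under 0.05 (67.1% of all genes) and 17 had no overlap between the unstretched groups (72.9% of all genes). With library totals in place of TMM factors the count was 11, 6 higher and 5 lower, and the median log2 difference of all genes moved from -0.07 to -0.39, so the direction of small differences depends on the scaling. All 5 tested membrane-type genes passed. Mmp14 (0.63, SE 0.19, adjusted p = 0.0204), Mmp15 (1.22, SE 0.22, adjusted p = 0.00534), Mmp17 (1.48, SE 0.33, adjusted p = 0.00639) and Mmp24 (1.29, SE 0.37, adjusted p = 0.0158) were higher in experiment 2 and Mmp16 was lower (-0.88, SE 0.28, adjusted p = 0.0226). With library totals Mmp14 was not called, and leaving out 1 library lost Mmp14 (any unstretched replicate of experiment 1, or replicate 1 of experiment 2), Mmp16 (replicate 1 or 3 of experiment 1, or 1 or 2 of experiment 2) or Mmp24 (replicate 2 or 3 of experiment 1, or 2 of experiment 2). Also higher were Timp2 (0.76, SE 0.17, adjusted p = 0.00626) and Timp1 (1.07, SE 0.27, adjusted p = 0.00926). Adamts6 (-2.51, SE 0.34, adjusted p = 0.00533), Adamts12 (-1.78, SE 0.25, adjusted p = 0.00533) and Adamts5 (-1.55, SE 0.31, adjusted p = 0.00554) were lower. The 6 genes called under both amplitudes had baseline differences of -0.27 for Adamtsl1, 0.20 for Adamtsl5, 0.18 for Adamts7, 0.70 for Adamts15, -1.51 for Adamts18 and 1.07 for Timp1, of which Timp1 alone passed (the others had adjusted p from 0.113 to 0.589).

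Transcript usage, the share of a gene's TPM carried by each transcript, was tested for 46 transcripts of 15 of these genes under low stretch and 40 transcripts of 15 genes under high stretch. By limma, 0 passed in either comparison (lowest adjusted p 0.398 and 0.307), beside 0.0145% and 0% of all transcripts, and 9 and 4 had an unadjusted p under 0.05, where 10% and 8.15% of all transcripts did. With 1 transcript given per gene, the widest shift was that of Adamts7-207, from 18.2 ± 6.12% to 29.4 ± 3.98% under high stretch (SD, n = 3 each, adjusted p = 0.601), followed among readable genes by Adamts10-214, from 22.2 ± 6.46% to 29.1 ± 4.54% (adjusted p = 0.703). Adamts9-205 went from 17 ± 3.35% to 11 ± 9.68% (adjusted p = 0.857) and Adamts1-202 from 4.35 ± 2.58% to 9.84 ± 1.03% (adjusted p = 0.585). For Adamts16-201 the share went from 85.3 ± 7.12% to 95.9 ± 3.63% while the modelled log2 ratio fell, because the gene was at 0.105 TPM after high stretch, about the size of the pseudocount of 0.1 TPM, so its usage cannot be read.

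Genes around the same proteolytic system were counted from lists. Over all genes tested, 5.45% were called under low stretch and 3.47% under high stretch, and no list was tested as a set. The plasminogen activators Plau (-0.01 and 0.47) and Plat (0.54 and 0.23) did not pass (lowest adjusted p 0.222). Of 8 ADAM genes 2 passed, both lower under low stretch (Adam12, -0.73, adjusted p = 0.0165, and Adam33, -1.98, adjusted p = 0.0164), and their high-stretch values were -0.52 and -1.91 (adjusted p = 0.54 and 0.0673). The main sheddases Adam10 (-0.10 and -0.34) and Adam17 (-0.12 and -0.26) and the membrane inhibitor Reck (-0.26 and -0.22) did not pass.

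Bmp1, which removes the C-propeptide of procollagens, rose under low stretch (0.62, SE 0.15, adjusted p = 0.0374) and had 0.52 under high stretch (adjusted p = 0.281), whereas Pappa fell under low stretch (-0.88, adjusted p = 0.00699) and the membrane protease Mme under high stretch (-2.01, adjusted p = 0.0439). These were the genes that passed among 9 and 6 tested astacin and other metalloendopeptidases. Among 8 tested further inhibitors and clearance factors, Col18a1 fell under low stretch (-0.64, adjusted p = 0.0338) and the procollagen proteinase enhancer Pcolce2 rose under high stretch (2.33, adjusted p = 0.0142). The convertase Pcsk5 rose under high stretch (1.02, adjusted p = 0.0293), the 1 of 5 convertases to pass. Of 11 cathepsins, Ctsl (0.46) and Ctsf (-0.76) changed under low stretch and Ctsw (2.69) under high stretch.

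Of 10 tested substrates and partners of ADAMTS and ADAMTSL proteins, 2 passed in each comparison. Thbs1 fell (-0.62, adjusted p = 0.0253) and the scarcely detected Bcan rose (1.61, adjusted p = 0.0456) under low stretch. Bcan had a mean of 0.0182 CPM (SD 0.00572) without stretch and 0.0564 CPM (SD 0.0207) with it. It passed the filter through the low-stretch samples, the group where it is high, so its call is not independent of the filter. Under high stretch the microfibril gene Fbn2 fell from 6.33 ± 1.60 to 1.91 ± 0.434 CPM (-1.71, SE 0.29, adjusted p = 0.0227), and Ltbp1, a partner of Adamtsl2, rose from 72.6 ± 28.5 to 223 ± 54.7 CPM (SD, n = 3 each, 1.63, SE 0.32, adjusted p = 0.0362). A list of 14 factors that bind inducible Mmp promoters held AP-1 factors, ETS factors and Runx2. Of these, 2 rose and 1 fell under low stretch, where 1.85% of all genes rose and 3.6% fell. Under high stretch 4 rose, where 1.31% of all genes rose. The 4 were Etv4 (2.55, adjusted p = 0.0289), Fosl1 (1.58, adjusted p = 0.0309), Etv5 (1.26, adjusted p = 0.0438) and Elk3 (1.14, adjusted p = 0.0289). Fosl1 alone of the 4 is an AP-1 factor, and the others are ETS factors. The low-stretch values of the 4 were 1.76, 0.51, 0.61 and 0.83, none called. The low-stretch genes, named because they are few and after their values were seen, were Fosl2 (0.87), Jun (0.38) and Fos (-0.89). Of the docking and inducing molecules, Cd44, a docking site for Mmp9 on the cell surface, (1.48, adjusted p = 0.025) and the integrin subunit Itgb3 (1.5, adjusted p = 0.0382) rose under high stretch and Cd63, a binding partner of Timp1, under low stretch (0.36, adjusted p = 0.0387). The median log2 fold change of these lists ran from -0.27 to 0.43 under low stretch and from -0.23 to 0.60 under high stretch, beside 0.01 and -0.02 for all genes tested.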

How the data were processed

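Gene read counts were deposited by the authors for 15 samples, and transcript TPM values were deposited by the authors in a second table. The submitters' processing notes name STAR 2.7.5c, featureCounts, Subread 2.0.0, Salmon 1.9.0, DESeq2 1.38.3 and mm39 without roles; strand setting and annotation are not given in the sources used here. If strand was ignored in counting, reads of overlapping opposite-strand genes cannot be told apart. Symbols came from GENCODE M21 (52083 of 55416 genes matched), promoters from RefSeq.

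Each gene's counts entered edgeR's quasi-likelihood F test (edgeR 4.0.16, R 4.3.3, filterByExpr, TMM factors, Benjamini-Hochberg over all genes, threshold 0.05, no block), each stretched group against its own unstretched samples. CPM used TMM-scaled totals. Gene TPM was summed over transcripts. Transcript usage was tested with limma 3.58.1 on log2 ratios (pseudocount 0.1 TPM, gene mean at least 1 TPM). Scripts were tested on simulated data. Alternatives were DESeq2 1.42.0, other scaling, filters, sample sets, plate run and replicate blocks, and leaving out each library. Groups came from sample titles, and plate runs from position codes in the descriptions. Described by value were genes called under stretch, genes with a mean of at least 1 TPM, the Timp genes, called genes of the lists (at most 4 per list by size, plus Plau, Plat, Adam10, Adam17, Reck and Bmp1) and the 5 transcripts with the widest shifts, 1 per gene. Mmp9, Mmp12, Mmp17 and Mmp24 were added after their values were seen. Members and lists were chosen with earlier results of these data known. Some list genes and an exon overlap are not reported here. Very few reads limit Adamts8, Adamts18 and Timp4.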

Additional observations from a re-analysis of the deposited data

Results flagged for a closer look

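Across 33 low-stretch sets of values (n = 6 each), the CPM of 30 genes and 3 Timp shares or ratios, 3 held a library far from the rest, where chance alone flags about 1 in 20 groups. Adamtsl1 was 0.821 CPM in low-stretch replicate 6, from plate run 3, and the nearest other low-stretch sample had 0.428 CPM. Even that sample stayed below all unstretched samples. Mmp15 was 16.5 CPM in low-stretch replicate 1, where the nearest other sample had 25.2 CPM. Timp4 was 0.0432 CPM in low-stretch replicate 2, against 0.0197 CPM in the nearest, from 19 and 6 counts.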

How the results depend on the processing

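For low stretch, 1181 genes and 9 of the 51 became 2702 genes with DESeq2, 640 genes with all 15 samples in 1 fit, 490 genes and 3 with the replicate block (low-stretch replicates 4 to 6 left out), and 6106 genes and 21 with the plate run block. Leaving out plate run 1 or 2 gave 15 genes and 1, or 190 genes and 2, and leaving out 1 library gave 220 to 1630 genes and 4 to 13 of the 51. The gene count was lower by over 1.5 times without low-stretch replicate 2 (730) or 4 (606) or unstretched replicate 1 (378), 2 (725) or 3 (220). For high stretch, 643 genes and 11 became 1315 genes with DESeq2, 1050 without a filter, 414 with a mean count of at least 100, 1488 with all 15 samples and 1546 genes and 14 with the replicate block, which is also the plate run. Leaving out 1 library gave 14 (high-stretch replicate 3), 90 (replicate 1), 293 (replicate 2), 122 (unstretched replicate 1) and up to 1421 genes (unstretched replicate 3), and 1 to 15 of the 51. The baseline count of 17 became 11 with library totals (an alternative added after the data were seen), 20 with the replicate block and 11 to 22 without 1 library. Usage calls under low stretch went from 0 to 6 of 161 transcripts without a filter, where 91 of all 82647 transcripts were called. They stayed at 0 under the other settings run, the replicate block included. The difference between amplitudes stayed at 0 of the 51 in every setting run. In experiment 1 same-number samples showed no pairing (3 pairs, correlations -0.44 to 0.365, mean -0.0713, against 0.0149 for other pairs). In experiment 2 the number is also the plate run. Its 3 same-number pairs ran from -0.163 to 0.45, with a mean of 0.176 against -0.0951 for the other 6. These are too few pairs to show pairing or its absence. Some signs turned. Low-stretch Adamtsl3 (0.02) became 0.00 with a mean count of at least 100, -0.08 without plate run 2 and -0.05 with library totals, and ran from -0.18 to 0.14 without 1 library. Low-stretch Timp2 (0.00) became -0.02 with a mean count of at least 100, -0.05 with the replicate block, 0.00 with the plate run block, -0.02 without plate run 2 or 3 and -0.06 with library totals, and ran from -0.04 to 0.06 without 1 library. High-stretch Timp2 became -0.03 with library totals. Mmp19 became -0.02 without plate run 3 (low stretch). Without 1 library Mmp19 ran from -0.03 to 0.25 under low and from -0.20 to 0.08 under high stretch, and low-stretch Adamts12 from -0.24 to 0.05 and Adamtsl2 from -1.58 to 1.16. The causes were not tested.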
